A study of Mus musculus with 12 samples.

Results

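The 78 genes described here are all genes of the deposited count table whose symbol begins with Il and a digit, which takes in the interleukins, their receptors and their soluble inhibitors, out of 18514 genes listed. Of these 78, 35 were counted as ligands or soluble inhibitors, 40 as receptor chains or decoys, and 3 (Il16, Il34 and Il4i1) were listed apart from both. The genes were chosen by symbol alone and not by any measured value. RNA was sequenced from the colorectal tissue of 12 male C57BL/6 mice, 1 library per mouse and 3 mice in each of 4 groups. Ctrl mice received neither treatment and Ctrl_Swim mice swam only. Model mice were given azoxymethane (AOM), a carcinogen, followed by cycles of dextran sodium sulfate (DSS) in the drinking water, which injures the colonic lining, and Model_Swim mice swam before and during the same AOM/DSS course. The mice were bought at an age of 4 weeks, and those that did not swim were placed in shallow water. The comparisons ask how interleukin and receptor transcripts differ in colitis-associated cancer and whether swimming changes them with or without AOM/DSS.

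Interleukins are secreted proteins with which leukocytes and tissue cells signal to each other, and each acts through a receptor built of several chains, some of which are shared within a family. The IL-1 family signals through MyD88 to NF-κB and is held in check by decoy receptors and by the antagonist Il1rn. The common gamma chain family, the IL-12 family, the IL-10 family and the gp130 family signal through JAK kinases and STAT factors, while IL-17 receptors signal through the adaptor Traf3ip2. In the gut, IL-1β and IL-17A are known for inflammation, IL-22 and IL-10 for barrier repair and restraint, and the IL-25 and IL-33 axis for type 2 immunity.

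The libraries held 17256953 to 19451055 counted reads each. A limit of 3 reads, taken here as an approximate upper limit for the counting error of a listed 0, equalled 0.153 to 0.172 CPM. CPM values, counts relative to library size, are scaled by edgeR's TMM method, and values of a group stand in the order of the mouse numbers, which are 1, 2 and 3, and in Ctrl_Swim 2, 3 and 4. All 12 libraries entered 1 edgeR quasi-likelihood model, with Benjamini-Hochberg adjustment over the 15484 genes kept by a filter on low counts. A gene is called where the adjusted p was under 0.05 and the fold change over 2 or under 0.5. Of the 78 members, 56 were tested and 22 were too sparse, among them 17 ligands, and the highest count of any of these 22 in any library was 28 (Il1f6). Some libraries stood apart in markers of other tissues. The summed CPM of 13 squamous epithelium genes was 1054, 2023 and 28.4 in Model, 171, 1135 and 1105 in Model_Swim and 105, 9.63 and 851 in Ctrl_Swim, against 13.4 to 20.04 in Ctrl, and that of 10 pancreatic acinar genes was 43713, 159 and 21242 in Model, against 80.3 to 154 in the 9 other libraries. A set of 8 mature colonocyte genes summed to 10588 to 11429 CPM in Ctrl, 9344 to 13585 in Ctrl_Swim, 3676 to 8416 in Model and 10139 to 10594 in Model_Swim. The epithelium of the labelled tissue was thus present in all groups. Every Model mouse lay below every other mouse in this sum, of which Car1 was the largest part in Ctrl. Car1 was at 6821, 6385 and 6775 CPM in Ctrl and 410, 277 and 4731 in Model. Of the 8 genes, 0 were called lower in Model vs Ctrl, 3 were lower by the adjusted p alone and 2 had a log2 fold change above 0. The part of this lower sum in the differences between Model and other groups was not tested.

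Receptor chains dominated the levels. On the scale of the deposited FPKM, which is per transcript length and so can be compared between genes, 10 members had a mean over 10 across the 12 libraries, 8 of them receptors and 2 of them ligands (Il18 and Il1rn), while 41 had a mean under 1, of which 27 were ligands and 13 receptors. The most abundant was Il17rc, a chain of the receptor of IL-17A and IL-17F, at 39, 41.1 and 46.0 FPKM in Ctrl, 42.9, 39.8 and 37.9 in Ctrl_Swim, 26.6, 35.7 and 32.9 in Model and 35.5, 38.3 and 39.6 in Model_Swim. Il10rb, the chain shared by the IL-10, IL-22 and IL-28 receptors, was at 31.8, 32.1 and 36.5 FPKM in Ctrl, 38.6, 36.7 and 34.9 in Ctrl_Swim, 38.7, 33.0 and 34.4 in Model and 35.3, 36.3 and 37.6 in Model_Swim. All 3 Model mice were below all 3 Ctrl mice for Il17rc, whereas Il10rb overlapped between all groups.

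Il6st, the signalling chain gp130, was at 25.9, 25.6 and 24.3 FPKM in Ctrl, 27.3, 32.1 and 34.6 in Ctrl_Swim, 35.9, 40.5 and 37.3 in Model and 38.0, 37.7 and 36.1 in Model_Swim, with every mouse of the other 3 groups above every Ctrl mouse. Il13ra1, which pairs with Il4ra in the receptor of IL-4 and IL-13, was at 26.5, 31.3 and 29.0 FPKM in Ctrl, 29.3, 28.8 and 25.6 in Ctrl_Swim, 44.1, 42.3 and 30.4 in Model and 33.3, 36.1 and 35.5 in Model_Swim, and Model 3 lay within the Ctrl range. Il18, an epithelial cytokine of the IL-1 family, was at 15.4, 17.2 and 19.6 FPKM in Ctrl, 20.6, 26.2 and 18.6 in Ctrl_Swim, 43.1, 35.2 and 16.6 in Model and 23.8, 22.0 and 22.1 in Model_Swim, again with Model 3 inside the Ctrl range. Il1rn, the IL-1 receptor antagonist, was at 13.3, 10.3 and 12.7 FPKM in Ctrl, 14.0, 12.1 and 11.6 in Ctrl_Swim, 45.8, 33.8 and 20.8 in Model and 17.8, 26.1 and 27.9 in Model_Swim, and the Model and Model_Swim mice were all above the Ctrl and Ctrl_Swim mice. Summed over the 78 members, FPKM was 263.9 ± 9.07 (SD, n = 3) in Ctrl, 299.3 ± 19.6 in Ctrl_Swim, 394 ± 41.8 in Model and 349 ± 23.6 in Model_Swim.

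**Figure D1:**
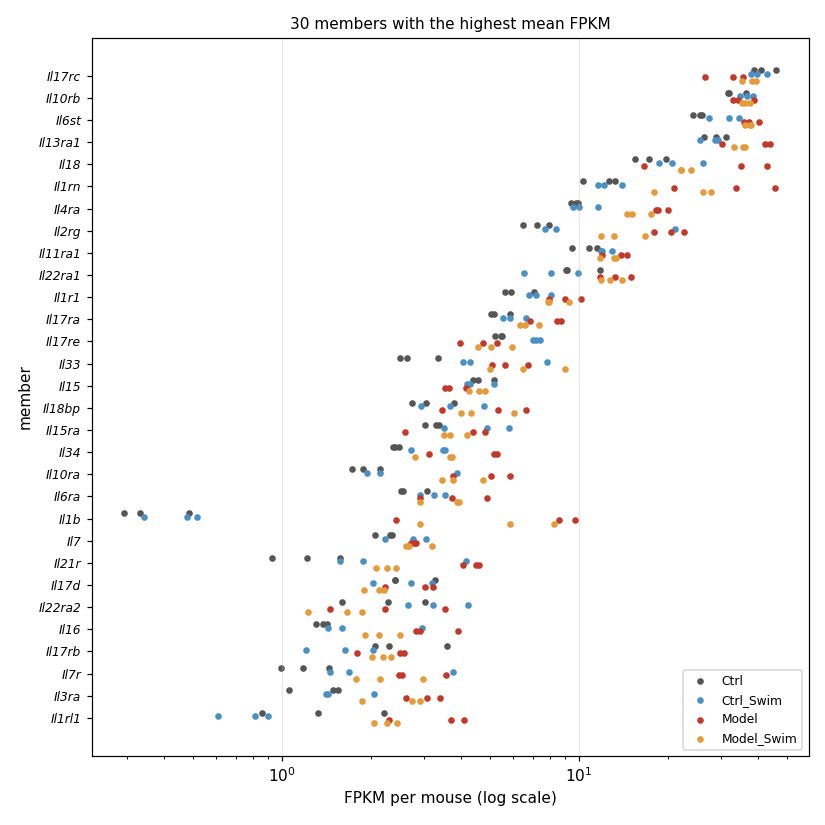
FPKM per mouse (horizontal log axis) of the 30 members with the highest mean FPKM (vertical axis), each point a mouse coloured by group. Il17rc and Il10rb head the order, and Il1b is the gene whose Model and Model_Swim mice lie farthest to the right of its Ctrl mice.

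Relative to Ctrl, 5 of 7 tested IL-1 family receptors, 4 of 9 IL-1 family ligands or inhibitors and 6 of 10 receptors of the common gamma chain and IL-4/IL-13 group rose in Model. In the IL-17 family, 1 of 2 tested ligands and 0 of 5 receptors were called, and in the IL-12 family 1 of 3 ligands and 1 of 3 receptors. No member was called lower. Of the 56 tested members, 23 were called, all higher in Model, where 7.43% of all genes tested were called and 6.21% were called higher. The 23 comprise 7 ligands or inhibitors, 15 receptor chains and Il16. By the adjusted p alone, 30 members were higher and 2 lower, against 16.5% and 16.2% of all genes. The median log2 fold change was 0.91 over the 56 members, beside 0.01 over all genes tested. It was 1.26 over the 18 ligands tested and 0.77 over the 36 receptors tested. Il1f5 and Il1f9 had no Ctrl read, and their estimates and lower bounds all lie above 0.91. Setting them at those bounds therefore could not move the median over the 56 members. These medians leave out the members too sparse for the test, 17 of them ligands. They take in ligands such as Il1f9 that passed the filter through groups with more reads than Ctrl. The ligand and receptor medians are therefore not comparable. Counting genes whose Model and Ctrl mice did not overlap, 29 members were higher and 3 lower, against 21% and 23.2% of all genes. Of the called members, 6 (Il11, Il12b, Il17a, Il1a, Il1f9 and Il20ra) had every Ctrl count under 10 and so entered the test through other groups, while 17 had a Ctrl count of 10 or more. Without Ctrl 2, the number called fell to 12, while calls over all genes fell from 1150 to 718. In bulk tissue, a change in the number of cells of a type and a change in RNA per cell cannot be told apart.

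**Figure D2:**
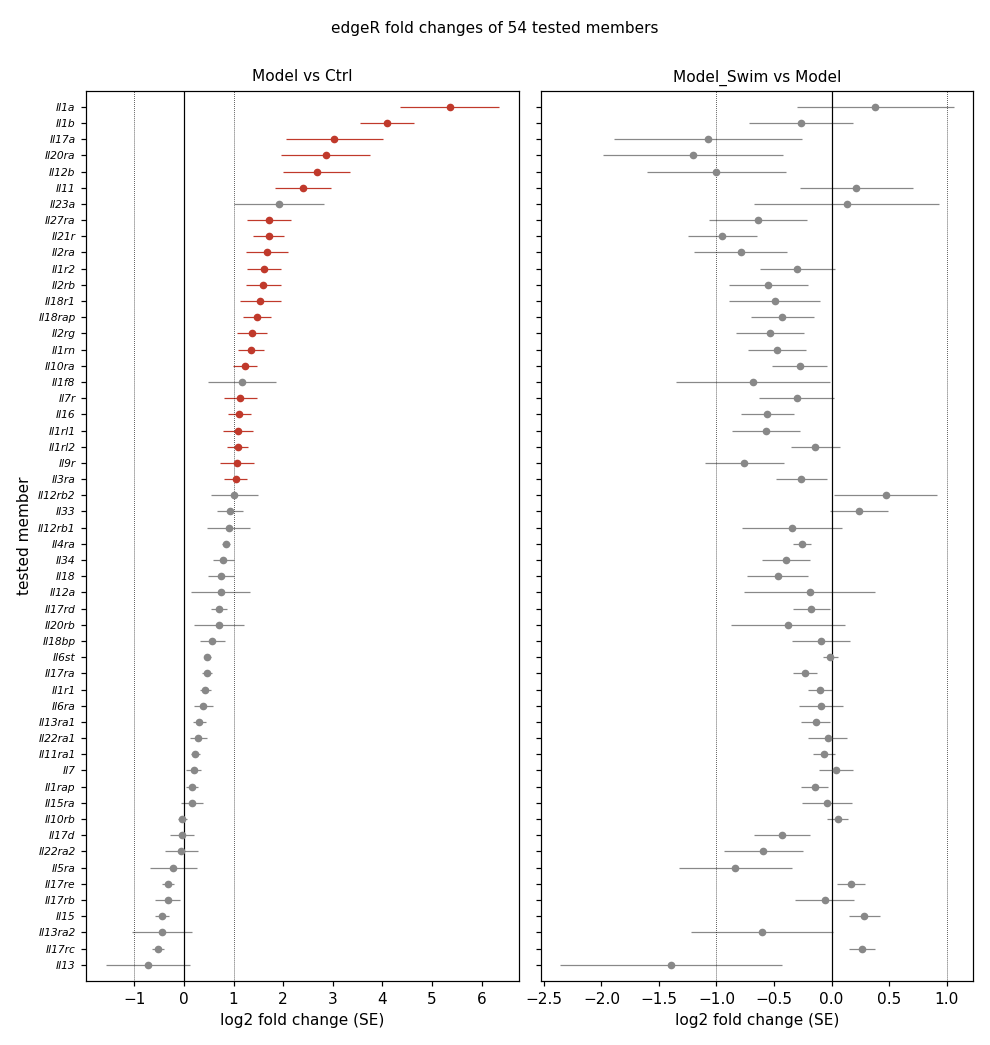
Log2 fold change with its SE (horizontal axes) of 54 tested members (vertical axis) in Model vs Ctrl (left) and Model_Swim vs Model (right), called members in red and dotted lines at the fold cutoffs. Il1f5 and Il1f9, with no read in Ctrl, are left out. Points on the left lie mostly above 0 and points on the right mostly below, where none was called.

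The IL-1 family held the ligands with the largest changes. Il1b, the principal inflammatory product of myeloid cells in this family, was at 1.38, 0.818 and 0.935 CPM in Ctrl, 0.931, 1.22 and 1.28 in Ctrl_Swim, 22.4, 24.7 and 6.37 in Model and 7.71, 15.3 and 21.5 in Model_Swim. All AOM/DSS mice were above all others, and Model 3 was the lowest of them (Model vs Ctrl: log2 fold change 4.09 ± 0.55 (SE), adjusted p = 0.000737). Il1a, an alarmin released by damaged cells, was at 0.166, 0 and 0 CPM in Ctrl, 0.164, 0.213 and 0.613 in Ctrl_Swim, 4.72, 1.80 and 1.03 in Model and 2.09, 2.83 and 4.93 in Model_Swim, and again no AOM/DSS mouse overlapped the others. The Ctrl libraries held 3 Il1a reads in all and the Model libraries 139, a ratio of 46.5 after scaling with a 95% exact interval of 15.6 to 228 for counting error (adjusted p = 0.00324). Il1rn, the antagonist of both, rose as well, with CPM of 40.1, 30.5 and 37.9 in Ctrl and 127, 92.0 and 58.1 in Model and no overlap (log2 fold change 1.35 ± 0.26 (SE), adjusted p = 0.00347).

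In the IL-36 branch, known for epithelial and especially squamous inflammation, Il1f9, Il1f5 and Il1f6 had at most 1 read in any Ctrl mouse. Il1f9 (IL-36γ) had no read in any Ctrl mouse and CPM of 0.603, 0.0532 and 1.38 in Ctrl_Swim, 3.16, 4.09 and 0 in Model and 0.550, 3.70 and 3.61 in Model_Swim. Model 3 had none and thus overlapped Ctrl. The Model mean was at least 14.7-fold higher than the Ctrl limit of 3 counts per library (adjusted p = 0.0272). Bounds of this kind, here and for Il1f5, cover counting error in Ctrl only and not the spread between mice. Il1f5 (the IL-36 receptor antagonist), likewise without a read in Ctrl, was at 0.384, 0 and 3.27 CPM in Ctrl_Swim, 4.82, 1.85 and 0.0574 in Model and 0.165, 1.41 and 0 in Model_Swim, with the Model mean at least 13.6-fold higher than that limit (adjusted p = 0.0603). Il1f6 (IL-36α), too sparse for the test, had counts of 0, 0 and 1 in Ctrl, 3, 0 and 7 in Ctrl_Swim, 28, 8 and 1 in Model and 1, 10 and 6 in Model_Swim. Model 3, with a squamous sum of 28.4 CPM, had at most 1 read of each of these 3 genes, whereas Model 1 and Model 2 (1054 and 2023 CPM) held most of the Model reads. Model_Swim 3, with a squamous sum of 1105 CPM, had no Il1f5 read. The part of squamous tissue in these values was not tested. Il1f8 (IL-36β) was present in every library, with counts of 9, 4 and 15 in Ctrl and 42, 9 and 13 in Model (log2 fold change 1.17 ± 0.69 (SE), adjusted p = 0.209). Il1rl2, the receptor of IL-36, was at 5.41, 4.63 and 4.62 CPM in Ctrl, 5.97, 6.12 and 7.16 in Ctrl_Swim, 10.5, 12.6 and 7.86 in Model and 6.82, 11.5 and 9.86 in Model_Swim, and Model was above Ctrl without overlap (log2 fold change 1.08 ± 0.22 (SE), adjusted p = 0.00456).

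Of the 7 tested IL-1 family receptors, 5 were called and Il1r1 passed the adjusted p alone. Those 6 genes lie side by side in a cluster on chromosome 1 (GRCm38.p6, chr1:40084692-40551707), in the order Il1r2, Il1r1, Il1rl2, Il1rl1, Il18r1 and Il18rap. Il1r2, a decoy that binds IL-1 without signalling, was at 0.938, 1.36 and 1.54 CPM in Ctrl, 0.986, 0.904 and 1.28 in Ctrl_Swim, 4.45, 5.12 and 2.30 in Model and 2.42, 3.43 and 3.82 in Model_Swim, so that every AOM/DSS mouse exceeded every other mouse (log2 fold change 1.62 ± 0.34 (SE), adjusted p = 0.00564). Il1r1, the signalling receptor of IL-1, moved less and stayed under the fold cutoff (log2 fold change 0.43 ± 0.11 (SE), adjusted p = 0.0117).

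Il1rl1 (ST2), the receptor of IL-33, was at 17.6, 6.71 and 10.4 CPM in Ctrl, 4.66, 5.85 and 6.24 in Ctrl_Swim, 30.1, 26.6 and 16.9 in Model and 15.1, 17.9 and 16.5 in Model_Swim. Model 3 lay below Ctrl 1, so the groups overlapped, although the gene was called (log2 fold change 1.08 ± 0.30 (SE), adjusted p = 0.0202). Il18r1, the ligand-binding chain of the IL-18 receptor, was at 3.37, 1.64 and 3.19 CPM in Ctrl, 3.34, 4.58 and 8.54 in Ctrl_Swim, 4.77, 9.53 and 9.59 in Model and 4.79, 4.89 and 7.26 in Model_Swim (log2 fold change 1.54 ± 0.41 (SE), adjusted p = 0.0158). Its partner chain Il18rap was at 1.82, 1.64 and 2.03 CPM in Ctrl, 2.52, 2.02 and 3.48 in Ctrl_Swim, 4.66, 6.10 and 4.53 in Model and 2.75, 3.48 and 5.14 in Model_Swim (log2 fold change 1.48 ± 0.28 (SE), adjusted p = 0.00374). For both IL-18 receptor chains, Model was above Ctrl without overlap, and Ctrl_Swim 4 was the highest mouse outside the AOM/DSS groups. The ligands of these receptors moved less, Il33 by 0.92 ± 0.26 on the log2 scale (adjusted p = 0.0202, under the fold cutoff) and Il18 by 0.75 ± 0.27 (adjusted p = 0.0533).

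Neutrophil and squamous markers differed between the same libraries. The 6 neutrophil genes summed to 4.80, 4.14 and 3.79 CPM in Ctrl, 81.6, 45.1 and 14.1 in Model and 11.7, 47.4 and 142 in Model_Swim, and 5 of the 6 were called higher in Model, with Mmp8 at 0 in at least 1 Ctrl mouse. Of 13 squamous genes, 10 were called higher in Model, with Dsg3, Ivl and Sprr3 at 0 in at least 1 Ctrl mouse and Ivl and Sprr3 in at least 1 Model mouse. Model 3, lowest in both sums among the Model mice, was also the lowest Model mouse for 12 of the 23 called members. Among them were Il1a, Il1b, Il1f9, Il1r2, Il1rl1, Il1rl2 and Il1rn. For 7 other called members (Il16, Il18r1, Il21r, Il27ra, Il2ra, Il2rb and Il7r), Model 3 was the highest Model mouse. The same shares over all genes were not counted. With Model 3 as the lone Model library, an alternative chosen after seeing the data that assumes it varies like the other mice, 13 members were called. Il1b and Il1a were among them, at log2 fold changes of 2.60 (adjusted p = 0.00697) and 4.08 (adjusted p = 0.0288), and Il1rn, Il1r2 and Il1rl1 were not, at 0.69 (0.0612), 0.84 (0.170) and 0.54 (0.341). With Model 2 as the lone Model library, which leaves out the 2 libraries rich in acinar RNA, 17 members were called, and Il16, Il17a, Il27ra, Il2ra, Il3ra, Il7r and Il9r were not.

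**Figure D3:**
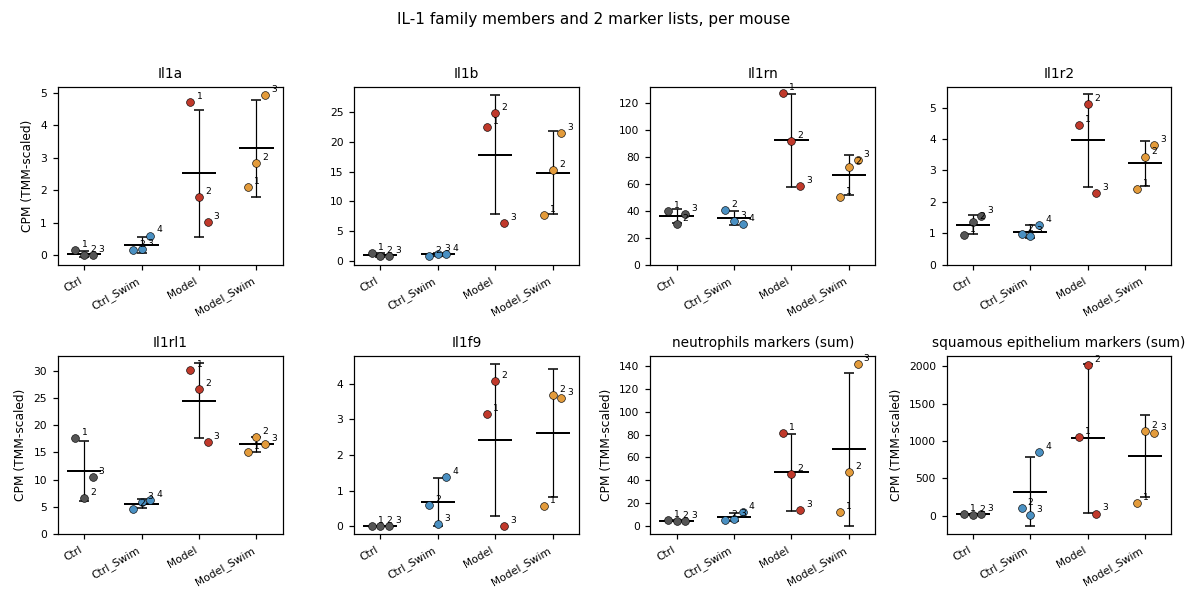
CPM per mouse (vertical axes, linear) in the 4 groups for 6 IL-1 family genes, with the summed CPM of neutrophil and squamous epithelium markers. Numbers mark the mice, and bars show the mean and SD of 3 mice. Model 3 is the lowest Model mouse in every panel.

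Promoter sequences (the 250 bases before a transcript start, RefSeq, GRCm38.p6) are shown for the ligand Il1b, its antagonist Il1rn, the receptor chain Il18rap and Il17a, called genes of the IL-1 and IL-17 axes. Of the 78 members, 61 had a promoter in this set, as did 20 of the 23 called members. Both strands were searched for the AP-1 motif TGANTCA, the STAT motif TTCNNNGAA and the NF-κB consensus, and capitals mark a match. The strand is minus for Il1b (chr2:129371140-129371389) and plus for Il1rn (chr2:24336610-24336859), Il18rap (chr1:40515112-40515361) and Il17a (chr1:20730655-20730904).
Il1b: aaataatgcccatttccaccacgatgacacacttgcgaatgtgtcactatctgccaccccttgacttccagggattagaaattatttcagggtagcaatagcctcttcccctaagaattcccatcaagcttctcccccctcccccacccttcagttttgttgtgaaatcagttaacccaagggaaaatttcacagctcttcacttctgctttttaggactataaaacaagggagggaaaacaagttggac
Il1rn: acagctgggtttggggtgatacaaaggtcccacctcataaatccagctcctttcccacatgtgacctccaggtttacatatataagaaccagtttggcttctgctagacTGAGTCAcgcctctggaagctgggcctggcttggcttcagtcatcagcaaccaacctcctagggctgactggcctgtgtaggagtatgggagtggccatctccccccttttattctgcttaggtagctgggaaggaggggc
Il18rap: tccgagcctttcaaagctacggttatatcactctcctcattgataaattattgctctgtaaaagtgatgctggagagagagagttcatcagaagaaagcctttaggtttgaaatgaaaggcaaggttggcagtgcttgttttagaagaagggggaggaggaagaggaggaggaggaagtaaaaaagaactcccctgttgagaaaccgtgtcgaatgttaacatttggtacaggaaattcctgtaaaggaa
Il17a: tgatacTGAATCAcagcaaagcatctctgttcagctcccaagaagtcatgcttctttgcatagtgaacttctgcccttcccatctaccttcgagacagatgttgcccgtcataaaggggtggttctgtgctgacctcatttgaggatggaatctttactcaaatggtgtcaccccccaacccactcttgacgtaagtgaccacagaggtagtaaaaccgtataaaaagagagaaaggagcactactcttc
TGANTCA was found in Il17a and in this start of Il1rn, and not at the 2 other Il1rn starts in the set (chr2:24345041-24345290 and chr2:24345121-24345370), while Il1b and Il18rap held none of the 3 motifs within this window. Of the 28 promoters of the 20 called members, 6 held TGANTCA (Il11, Il16, Il17a, Il1a, Il1rn and Il20ra), 4 held TTCNNNGAA (Il18r1, Il1f9, Il1r2 and Il7r) and 2 held the NF-κB consensus (Il16 and Il2ra). Over the 76 promoters of all 61 members in the set, called or not, 13, 8 and 6 held these motifs in that order. Among 32851 mouse promoters of the same length, 6.75%, 7.02% and 7.25% held them. Whether the shares differ was not tested. These are matches of letters, and no binding was measured.

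Receptors of lymphocyte growth factors formed the other large group. Of the 10 tested receptors of the common gamma chain and IL-4/IL-13 group, 6 were called higher (Il2ra, Il2rb, Il2rg, Il7r, Il9r and Il21r) and Il4ra passed the adjusted p alone. Il2rg, the common gamma chain itself, was at 14.1, 11.3 and 12.8 CPM in Ctrl, 13.1, 13.5 and 32.6 in Ctrl_Swim, 29.4, 36.2 and 33.6 in Model and 19.6, 21.5 and 27.4 in Model_Swim (log2 fold change 1.38 ± 0.30 (SE), adjusted p = 0.00687). Il2ra, the high-affinity chain of the IL-2 receptor carried by regulatory and activated T cells, was at 1.71, 1.04 and 1.92 CPM in Ctrl, 1.59, 1.49 and 3.99 in Ctrl_Swim, 4.24, 4.85 and 5.85 in Model and 2.26, 2.23 and 4.14 in Model_Swim (log2 fold change 1.67 ± 0.42 (SE), adjusted p = 0.0125). Both were higher in every Model mouse than in every Ctrl mouse and in every Model_Swim mouse, and Ctrl_Swim 4 was the highest of its group for both.

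Il2rb, shared by the IL-2 and IL-15 receptors, was at 4.31, 3.22 and 4.40 CPM in Ctrl, 4.60, 4.52 and 12.3 in Ctrl_Swim, 11.1, 10.7 and 14.3 in Model and 6.77, 8.48 and 9.44 in Model_Swim (log2 fold change 1.60 ± 0.35 (SE), adjusted p = 0.00692). Il21r, the receptor of the T helper cytokine IL-21, was at 4.80, 2.78 and 3.68 CPM in Ctrl, 4.60, 5.16 and 11 in Ctrl_Swim, 12.7, 11.2 and 13.0 in Model and 5.89, 6.36 and 6.84 in Model_Swim (log2 fold change 1.71 ± 0.31 (SE), adjusted p = 0.00284). The Model range of Il21r lay wholly above those of Ctrl, Ctrl_Swim and Model_Swim. Il7r, the receptor of the lymphocyte survival factor IL-7, was at 3.48, 4.03 and 5.0 CPM in Ctrl, 5.64, 4.58 and 11.4 in Ctrl_Swim, 7.99, 8.01 and 11.5 in Model and 5.78, 6.91 and 9.60 in Model_Swim (log2 fold change 1.14 ± 0.34 (SE), adjusted p = 0.0251). Il9r, the receptor of IL-9, was at 4.14, 1.36 and 2.42 CPM in Ctrl, 1.92, 2.39 and 3.37 in Ctrl_Swim, 5.15, 6.59 and 4.94 in Model and 3.36, 3.26 and 3.23 in Model_Swim (log2 fold change 1.07 ± 0.35 (SE), adjusted p = 0.0363), with each Model mouse above all others.

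Il4ra, next to Il21r on chromosome 7, was at 55.4, 51.2 and 54.3 CPM in Ctrl, 50.8, 50.4 and 56.3 in Ctrl_Swim, 93.4, 100.4 and 95.5 in Model and 75.3, 77.4 and 89.6 in Model_Swim. Its groups separated fully, in the order Model, Model_Swim and then the untreated mice, with a change under the fold cutoff (log2 fold change 0.85 ± 0.08 (SE), adjusted p = 0.000310). Among the ligands of these receptors, Il2, Il4 and Il21 had at most 7 reads in a library and did not enter the test, Il13 did not pass (log2 fold change -0.73 ± 0.84), Il7 had 142 to 213 reads in every library and did not pass (log2 fold change 0.19 ± 0.15), and Il15 was lower in Model by the adjusted p alone (log2 fold change -0.44 ± 0.14 (SE), adjusted p = 0.0335).

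T and B cell markers differed in the same direction. The 10 T cell genes in the table summed to 37.9, 41.1 and 33.1 CPM in Ctrl, 40.5, 46.1 and 90.4 in Ctrl_Swim, 73.6, 89.4 and 114 in Model and 64.4, 65.4 and 71.9 in Model_Swim, and 7 of the 10 were called higher in Model. The 6 B cell genes summed to 64.9, 30.9 and 48.0 CPM in Ctrl, 42.0, 56.3 and 125 in Ctrl_Swim, 127, 124 and 144 in Model and 63.8, 65.3 and 41.2 in Model_Swim, and all 6 were called higher in Model. Ctrl_Swim 4 was the highest Ctrl_Swim mouse in both sums, as it was for Il2ra, Il2rb, Il2rg, Il7r, Il21r and Il27ra. No T or B cell marker in the table was at 0 in any library. The sum of 7 macrophage genes was 201 to 221 CPM in Ctrl and 310.3 to 374 in Model, with 2 of the 7 called higher and 1 lower. The lower gene was Cd163, at 9.11, 10.4 and 7.48 CPM in Ctrl and 2.09, 2.18 and 5.6 in Model. The part of the numbers of these cells in the results was not tested.

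**Figure D4:**
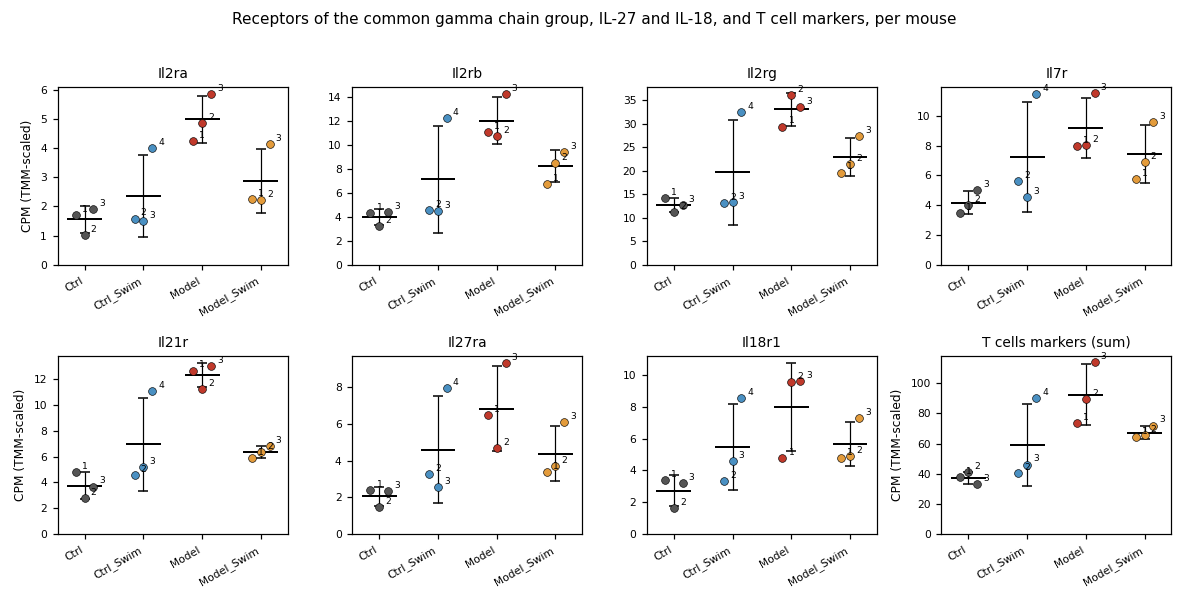
CPM per mouse (vertical axes, linear) in the 4 groups for 7 receptor genes and the summed CPM of T cell markers. Numbers mark the mice, and bars show the mean and SD of 3 mice. Ctrl_Swim 4 lies apart from the other Ctrl_Swim mice in every panel, and for Il2ra, Il2rb, Il2rg and Il21r the Model mice are above all Model_Swim mice.

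Other called members came from the IL-17, IL-12, gp130, IL-10 and common beta chain groups. Il17a, the signature cytokine of Th17 cells, was at 0.166, 0.0545 and 0.0550 CPM in Ctrl, 0.0548, 0 and 0.0511 in Ctrl_Swim, 1.5, 0.599 and 0.287 in Model and 0.0550, 0.272 and 0.795 in Model_Swim, on counts of 28, 11 and 5 in Model (log2 fold change 3.03 ± 0.97 (SE), adjusted p = 0.0349). Its neighbour Il17f, not tested, had counts of 0, 0 and 1 in Ctrl, 0, 0 and 1 in Ctrl_Swim, 14, 4 and 6 in Model and 3, 1 and 2 in Model_Swim. Both were above Ctrl in every Model mouse, and for Il17f the ratio over 24 Model reads and 1 Ctrl read was 24.1 with a 95% exact interval of 3.93 to 991. Without the filter on low counts, Il17f and Il1f6 were called too (adjusted p = 0.0167 and 0.0421), which gave 25 of 78 members. Over all genes, that fit called 1181, against 1150 with the filter.

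Il12b, the p40 subunit of IL-12 and IL-23, was at 0.276, 0.109 and 0.110 CPM in Ctrl, 0.438, 0.106 and 0.920 in Ctrl_Swim, 0.751, 1.31 and 1.21 in Model and 0.440, 0.490 and 0.689 in Model_Swim (log2 fold change 2.67 ± 0.68 (SE), adjusted p = 0.0134). Its partners were not called, Il12a at a log2 fold change of 0.74 ± 0.59 and Il23a at 1.91 ± 0.91, the latter with CPM of 1.88, 0.381 and 0.0574 in Model. Il27ra, the receptor of IL-27, was at 2.37, 1.47 and 2.36 CPM in Ctrl, 3.29, 2.55 and 7.92 in Ctrl_Swim, 6.49, 4.69 and 9.30 in Model and 3.36, 3.70 and 6.10 in Model_Swim (log2 fold change 1.72 ± 0.44 (SE), adjusted p = 0.0141). For Il12b and Il27ra, Model was above Ctrl without overlap, with Ctrl_Swim 4 inside the Model range.

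Il11, a gp130 cytokine of stromal cells known in colitis-associated tumours, was at 0.442, 0.218 and 0.165 CPM in Ctrl, 0.219, 0.479 and 0.613 in Ctrl_Swim, 1.39, 2.34 and 0.689 in Model and 1.54, 2.12 and 1.48 in Model_Swim (log2 fold change 2.40 ± 0.56 (SE), adjusted p = 0.00918). It was higher in every AOM/DSS mouse than in every other mouse. Il6, of the same family, had at most 10 reads in a library and was not tested, and their receptors were not called, although Il6st passed the adjusted p alone (log2 fold change 0.47 ± 0.07 (SE), adjusted p = 0.00101). Il10ra, the ligand-binding chain for IL-10, was at 7.07, 6.32 and 7.97 CPM in Ctrl, 6.90, 7.24 and 12.7 in Ctrl_Swim, 13.0, 19.7 and 17.6 in Model and 13.2, 12 and 16.3 in Model_Swim (log2 fold change 1.23 ± 0.24 (SE), adjusted p = 0.00419), while Il10 itself was not tested. Il20ra, a chain of the receptors of IL-19, IL-20 and IL-24, was at 0.166, 0.0545 and 0.110 CPM in Ctrl, 0.274, 0.266 and 0.460 in Ctrl_Swim, 0.697, 1.69 and 0.115 in Model and 0.165, 0.272 and 0.636 in Model_Swim, with Model 3 inside the Ctrl range (log2 fold change 2.85 ± 0.90 (SE), adjusted p = 0.0324).

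Il3ra, the IL-3 receptor chain of basophils and plasmacytoid dendritic cells, was at 4.53, 3.16 and 4.67 CPM in Ctrl, 4.11, 3.94 and 5.42 in Ctrl_Swim, 9.60, 7.19 and 8.67 in Model and 5.28, 7.72 and 8.22 in Model_Swim (log2 fold change 1.04 ± 0.23 (SE), adjusted p = 0.00646). Il16, a lymphocyte chemoattractant, was at 9.38, 8.40 and 9.02 CPM in Ctrl, 8.99, 9.47 and 16.9 in Ctrl_Swim, 17.6, 16.8 and 23.8 in Model and 13.0, 11.5 and 15.1 in Model_Swim (log2 fold change 1.12 ± 0.23 (SE), adjusted p = 0.00530). Model was above Ctrl without overlap for both. Among the IL-17 receptors none was called, and they did not move together. By the adjusted p alone, Il17ra (0.46) and Il17rd (0.70) were higher and Il17rc (-0.52, adjusted p = 0.00612) was lower on the log2 scale, and Il17re, adjacent to Il17rc on chromosome 6, was at -0.32 (adjusted p = 0.0644). Il22ra1, the epithelial IL-22 receptor, was at 57.2, 55.4 and 72.8 CPM in Ctrl and 75.7, 84.0 and 67.7 in Model (adjusted p = 0.201). Il34, which binds the receptor Csf1r, passed the adjusted p alone (log2 fold change 0.80 ± 0.21 (SE), adjusted p = 0.0146).

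No threshold was passed by 24 tested members, whose log2 fold changes ran from -0.73 (Il13) to 1.91 (Il23a) apart from Il1f5. They include the IL-12 receptor chains Il12rb1 (0.90 ± 0.44) and Il12rb2 (1.01 ± 0.47), the inhibitor of IL-18, Il18bp (0.57 ± 0.26), the IL-6 receptor chain Il6ra (0.39 ± 0.19), the IL-15 receptor chain Il15ra (0.17 ± 0.22), the lymphocyte survival factor Il7 (0.19 ± 0.15), the IL-1 receptor accessory chain Il1rap (0.17 ± 0.12) and the IL-22 binding decoy Il22ra2 (-0.05 ± 0.33), each value a log2 fold change with its SE. Also among them are Il10rb, Il11ra1, Il12a, Il13ra1, Il13ra2, Il17d, Il17rb, Il17re, Il18, Il1f8, Il20rb, Il22ra1 and Il5ra. The 22 members that were not tested are Il2, Il4, Il5, Il6, Il10, Il17b, Il17c, Il17f, Il19, Il1f6, Il1f10, Il20, Il21, Il22, Il24, Il25, Il27, Il11ra2, Il1rapl1, Il23r, Il31ra and Il4i1. The anti-inflammatory cytokine Il10 had counts of 4, 2 and 4 in Ctrl and 11, 12 and 5 in Model, and the barrier cytokine Il22 2, 3 and 0 and 2, 7 and 2. In the fit without the filter they were at log2 fold changes of 1.45 (adjusted p = 0.245) and 1.08 (adjusted p = 0.462).

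Calls of single members depended on single libraries. Leaving out 1 library ended the call of Il12b (without Ctrl 2 or 3, adjusted p of 0.0557 to 0.0570), Il18r1, Il27ra and Il2ra (each without Ctrl 2, 0.0615, 0.0592 and 0.0535), Il17a (without any Ctrl mouse, Model 1 or Model 2, 0.0557 to 0.123), Il1f9 (without any Ctrl mouse or Model 2, 0.0631 to 0.0713) and Il20ra (without any Ctrl mouse or Model 2, 0.0646 to 0.158). It also ended that of Il1rl1 (without Ctrl 2, Ctrl 3, Model 1 or Model 2, 0.0548 to 0.0712), Il7r (without Ctrl 1, Ctrl 2 or Model 3, 0.0601 to 0.0831) and Il9r (without Ctrl 2, Ctrl 3 or Model 2, 0.0986 to 0.105). Il16 (without Model 3, log2 fold change 0.96), Il1rl2 (without Model 2, 0.93) and Il3ra (without Ctrl 2 or Model 1, 0.90 to 0.96) fell under the fold cutoff only. The calls of Il10ra, Il1b, Il21r, Il2rb and Il2rg held under all 22 alternatives, and that of Il1a under the 20 that could test it.

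Downstream and partner genes were read from a list of 35 kinases, STAT factors, feedback inhibitors, adaptors and related cytokines or receptors, all tested. In Model, 8 were called higher and none lower, against the 6.21% of all genes called higher. Socs3, the feedback inhibitor induced by STAT3, rose most among intracellular genes (log2 fold change 1.97 ± 0.36 (SE), adjusted p = 0.00284), with Jak3, the kinase of the common gamma chain (1.12, adjusted p = 0.00113), and Stat4, the factor of IL-12 signalling (1.21, adjusted p = 0.0174). Osm, a myeloid gp130 cytokine (2.44, adjusted p = 0.0340), and its receptor Osmr (1.19, adjusted p = 0.000736) both rose, as did Clcf1 (1.52, adjusted p = 0.0155). The beta chains Csf2rb (1.25, adjusted p = 0.00197) and Csf2rb2 (1.64, adjusted p = 0.00307), the first shared by the IL-3, IL-5 and GM-CSF receptors and the second specific to IL-3 in the mouse, are near-identical copies between which reads may be split, and both rose. The list's median was 0.29, and by the adjusted p alone 17 genes were higher and 1 (Socs2, -0.62) lower. Without Ctrl 2, 5 of the 35 were called, while calls over all genes fell from 1150 to 718.

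Between Model_Swim and Model, no member was called by edgeR (0.071% of all genes tested were), nor by DESeq2, and 6 members (Il16, Il17ra, Il17rc, Il21r, Il4ra and Il9r) had an unadjusted p under 0.05, against 13.6% of all genes. The values nevertheless lay mostly lower in Model_Swim. Of the 56 tested members, 45 had a log2 fold change under 0 with a median of -0.27, beside -0.01 over all genes tested. The comparisons of Model_Swim with Model and of Model with Ctrl use the same Model mice and are not independent.

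Without overlap between Model_Swim and Model, 10 members were lower (Il12b, Il16, Il17d, Il1rap, Il21r, Il2ra, Il2rb, Il2rg, Il4ra and Il9r) and 2 were higher (Il15 and Il17rc), against 8.57% and 8.32% of all genes. The lowest adjusted p was that of Il4ra (log2 fold change -0.26 ± 0.08 (SE), adjusted p = 0.221), followed by Il21r (log2 fold change -0.95 ± 0.30 (SE), adjusted p = 0.235). Il2rg differed by -0.53 ± 0.30, Il2ra by -0.79 ± 0.41, Il2rb by -0.55 ± 0.34 and Il9r by -0.76 ± 0.34 on the log2 scale. By the group means, Model_Swim stood between Ctrl and Model for all 6. Of the members that were higher in Model_Swim, Il15 was at 12.4, 11.7 and 13.9 CPM in Ctrl, 8.79, 8.88 and 10.4 in Model and 12.1, 10.6 and 11.5 in Model_Swim. Il17rc was at 103, 107 and 121 CPM in Ctrl, 64.9, 85.3 and 80.6 in Model and 87.5, 93.6 and 96.5 in Model_Swim. Model was the lowest of these 3 groups for both. In Ctrl_Swim, Il15 was at 13.4, 10.2 and 10.1 CPM and overlapped Model, and Il17rc was at 109, 95.0 and 87.0. The IL-1 ligands showed no separation between Model_Swim and Model. Il1b differed by -0.27 ± 0.45 and Il1a by 0.38 ± 0.68, with overlapping mice, and Model_Swim 1 was the lowest and Model_Swim 3 the highest of their group for both genes and for the neutrophil sum. The T cell sum in Model_Swim (64.4 to 71.9 CPM) lay below that in Model (73.6 to 114), and so did the B cell sum (41.2 to 65.3 against 124 to 144), and the part of these cells in the values was not tested.

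In mice without AOM/DSS, swimming gave no call by edgeR among the members (0.168% of all genes tested were called), and DESeq2 called Il1rl1 alone, as lower in Ctrl_Swim. An unadjusted p under 0.05 was reached by 16 of 56 members, against 17.6% of all genes. The members leaned higher in Ctrl_Swim, 39 of 56 above 0. Their median was 0.16 on the log2 scale, beside 0.00 for the whole table. Without overlap, 9 were higher (Il17re, Il1f9, Il1rl2, Il20ra, Il27ra, Il2rb, Il33, Il34 and Il6st) and 4 lower (Il1rl1, Il17rb, Il5ra and Il13), against 12.6% and 14.9% of all genes, so that the share that was lower lay below that of all genes. The largest of the 9 outside the sparse genes was Il27ra (1.15 ± 0.44 on the log2 scale), followed by Il2rb (0.84 ± 0.35) and Il33 (0.78 ± 0.26), all highest in Ctrl_Swim 4. The 4 lower members are receptors or ligands of type 2 cytokines, a grouping made after their values were seen. Not all tested members of that kind were lower without overlap. Il4ra (-0.03 ± 0.08) and Il13ra1 (-0.17 ± 0.13) had overlapping mice, and Il33, given above, was higher without overlap. Il1rl1 had the lowest adjusted p of any member in this comparison (log2 fold change -1.05 ± 0.31 (SE), adjusted p = 0.141). Il17rb, the receptor of IL-25, was at 7.95, 4.96 and 4.51 CPM in Ctrl and 3.45, 2.39 and 3.88 in Ctrl_Swim (log2 fold change -0.84 ± 0.26 (SE), adjusted p = 0.152). Il5ra, the eosinophil receptor of IL-5, was at 2.21, 1.36 and 1.65 and 0.438, 0.851 and 1.02 CPM (log2 fold change -1.16 ± 0.49 (SE), adjusted p = 0.257).

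The ligands were sparse. Il13 had counts of 22, 11 and 7 in Ctrl and 0, 4 and 4 in Ctrl_Swim (log2 fold change -2.33 ± 0.95 (SE), adjusted p = 0.244). Il5, in the same type 2 cytokine cluster of chromosome 11, was not tested and had counts of 19, 5 and 5 in Ctrl, 1, 0 and 2 in Ctrl_Swim, 1, 3 and 1 in Model and 1, 2 and 0 in Model_Swim. Il25, the tuft cell cytokine, had counts of 2, 5 and 0 in Ctrl and none in Ctrl_Swim. Il4 had a single read over the 3 Ctrl mice and 0, 0 and 4 in Ctrl_Swim. Ctrl 1 held the most reads of Il5, Il13, Il5ra, Il17rb and Il1rl1 among the Ctrl mice. Il33, the ligand of Il1rl1, did not share this direction, at 10.5, 7.63 and 8.14 CPM in Ctrl and 12.1, 12.1 and 21.0 in Ctrl_Swim (log2 fold change 0.78 ± 0.26 (SE), adjusted p = 0.175). The sum of 7 mast cell genes was 124 to 174 CPM in Ctrl and 105 to 121 in Ctrl_Swim, and that of 6 tuft cell genes 75.0 to 82.1 and 54.2 to 57.1. Kit made up most of the mast cell sum, at 113, 117 and 105 CPM in Ctrl and 111, 102 and 99.4 in Ctrl_Swim. Mcpt1 overlapped, at 40.1, 5.29 and 22.7 against 5.53, 1.76 and 2.96 CPM. Of the 7 genes, 0 were called and 0 had a log2 fold change above 0. The part of mast and tuft cells in these values was not tested.

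**Figure D5:**
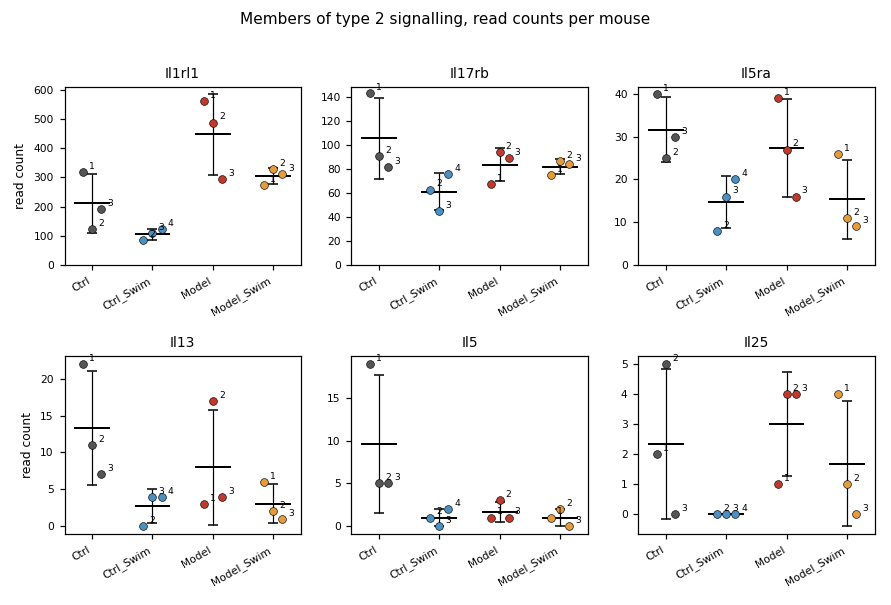
Read counts per mouse (vertical axes, linear) of 6 members in the 4 groups, chosen after their values were seen as receptors or ligands of type 2 cytokines, with numbers for the mice and bars for the mean and SD of 3 mice. For Il1rl1, Il17rb, Il5ra and Il13, all Ctrl_Swim mice are below all Ctrl mice, and Il5 and Il25 have 2 reads or fewer in every Ctrl_Swim mouse.

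Between mice with and without AOM/DSS that swam, 4 members were called, all higher in Model_Swim, against 1% of all genes called and 0.924% called higher. They were Il1b (log2 fold change 3.69 ± 0.53 (SE), adjusted p = 0.00609), Il1a (log2 fold change 3.28 ± 0.79 (SE), adjusted p = 0.0401), Il1r2 (log2 fold change 1.60 ± 0.35 (SE), adjusted p = 0.0283) and Il1rl1 (log2 fold change 1.56 ± 0.31 (SE), adjusted p = 0.0226), all of the IL-1 family and all without overlap. The adjusted p alone gave 7, against 5.18% of all genes, and added Il4ra (log2 fold change 0.62, adjusted p = 0.00342), Il6st (0.28, adjusted p = 0.0396) and Il22ra1 (0.67, adjusted p = 0.0478). Without overlap, 16 members were higher and 3 (Il17re, Il1rap and Il22ra2) lower, against 15.9% and 16.5% of all genes. The common gamma chain receptors were not called here, with Il2rg at 0.21 ± 0.30 and Il21r at -0.13 ± 0.30, and Ctrl_Swim 4 exceeded every Model_Swim mouse for both. Squamous and neutrophil sums also differed between these groups, at 105, 9.63 and 851 CPM for squamous genes in Ctrl_Swim and 171, 1135 and 1105 in Model_Swim, and at 4.93, 6.01 and 11.6 and 11.7, 47.4 and 142 for neutrophil genes, and their part in the 4 calls was not tested. Of the 35 partner genes, Nfkbiz, an NF-κB cofactor of IL-1 and IL-17 responses, was called (log2 fold change 1.11). The 4 calls rested on few mice, since leaving out any 1 Ctrl_Swim or Model_Swim mouse left Il1b as the only one, with adjusted p of 0.0531 to 0.136 for Il1a, 0.0507 to 0.0976 for Il1r2 and 0.0508 to 0.0821 for Il1rl1. That range for Il1a also covers its loss without Ctrl 2 or Ctrl 3. Calls over all genes fell as well, from 155 to between 46 and 103 when 1 Ctrl_Swim or Model_Swim mouse was left out.

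An interaction term asked whether swimming made a different change with AOM/DSS than without it. No member was called (0% of all genes were), and 15 members had an unadjusted p under 0.05, against 19% of all genes. Of these 15, 13 were negative, that is, swimming was accompanied by lower values under AOM/DSS relative to its difference in untreated mice. Il21r had the lowest adjusted p (difference of log2 fold changes -1.84 ± 0.43, adjusted p = 0.115). DESeq2 called Il21r alone, as did edgeR without Ctrl_Swim 2, where 1 member was called. No member was called without Ctrl_Swim 4. With 1 library left out, the members at an unadjusted p under 0.05 ranged from 7 (without Ctrl_Swim 4) to 18 (without Ctrl_Swim 2 or Model 3). Il2rb (-1.39 ± 0.49), Il2rg (-1.17 ± 0.42), Il2ra (-1.39 ± 0.59), Il7r (-1.10 ± 0.47), Il27ra (-1.78 ± 0.61) and Il18r1 (-1.5 ± 0.57) were among the 13 in the fit of all libraries. All of them are genes for which Ctrl_Swim 4 was far above the other Ctrl_Swim mice. The same held for Il21r, at 4.60, 5.16 and 11 CPM in Ctrl_Swim. Il15 (0.46 ± 0.19) and Il17rc (0.46 ± 0.16) were the 2 positive ones.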

How the data were processed

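Colorectal RNA of 12 mice was sequenced with a stranded mRNA kit. The deposited counts per gene were made by the authors with Trimmomatic, HISAT2 (GRCm38.p6) and HTSeq-count, and the deposited FPKM values with Cufflinks. Tool versions and the annotation release are not given in the sources used here. Groups were taken from the sample labels. Total counts ran from 17256953 to 19451055 per library, and intervals cover counting error only. Replicates are separate mice and differed beyond sampling noise.

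Counts were tested in R 4.3.3 with edgeR 4.0.16 (TMM scaling, filterByExpr with a minimum count of 10, quasi-likelihood F test, 1 model of 4 groups with 5 contrasts). A call needs an adjusted p under 0.05 and a fold over 2 or under 0.5. DESeq2 1.42.0 and limma 3.58.1, the latter on log2(FPKM + 1) and log2(FPKM + 0.1) of genes with mean FPKM of at least 0.5, gave alternatives, as did no filter, other size factors, only the groups compared, a replicate block, the adjusted p alone, 1 library left out, and a lone Model library, the last chosen after seeing the data. The fits were tested on simulated data. With 3 mice against 3, an exact permutation test cannot go below p = 0.1, so none is given for single values.

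By rule, values per library are given for members called in any comparison and for the 6 members with the highest mean FPKM, and called partner genes are named (up to 8 in Model vs Ctrl). Other members shown with values per library, such as Il4ra, Il15, Il22ra1, Il33 and the sparse ligands, were chosen after their values were seen. The members follow from their symbols alone, without use of any measured value. The choice of this gene family, the gene lists and the marker lists was made with earlier results of these data known. Promoter sequences are RefSeq's on GRCm38.p6.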

Additional observations from a re-analysis of the deposited data

How the results depend on the processing

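The number of members called in Model vs Ctrl (23) was 25 with DESeq2 and without the filter, 21 with the replicate block, 18 with only the groups compared, 17 with limma on log2(FPKM + 0.1) and 7 on log2(FPKM + 1). It was 12 to 28 with 1 library left out (12 without Ctrl 2), 13 with Model 3 as the lone Model library and 17 with Model 2, both chosen after seeing the data. For Model_Swim vs Ctrl_Swim (4), it was 7 with only the groups compared, 7 with the adjusted p alone, 1 with limma on log2(FPKM + 1), 0 with the replicate block, 7 and 7 with a lone Model library, and 1 to 6 with 1 library left out. For Model_Swim vs Model it was 0 under every alternative run. For Ctrl_Swim vs Ctrl (0), DESeq2 gave 1, and for the interaction (0) DESeq2 gave 1 and leaving out 1 library 0 to 1. Of the 35 partner genes (8 in Model vs Ctrl), 18 passed by the adjusted p alone and 5 to 9 were called with 1 library left out. The causes were not tested.

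The labels do not say whether mice with the same number in different groups belong together. The correlation of their deviations ran from -0.26 to 0.56, and that of mice with different numbers from -0.56 to 0.45. These ranges do not settle whether the numbers mark pairs. The replicate block, given above, is thus an alternative and not a known paired design. Low counts limit the ligands most: the filter removed 22 members, of which Il17f and Il1f6 were called without it.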
